A study of Arabidopsis thaliana with 8 samples.

Results

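Dark-grown seedlings of the tir1 afb1 afb2 afb3 quadruple mutant of Arabidopsis thaliana were set against wild-type seedlings grown in blue light, with polyadenylated RNA of whole seedlings sequenced in 2 libraries of each. The seedlings were of the Col-0 accession. Seeds on reduced-strength Murashige and Skoog (MS) medium with 1% sucrose spent 3 days at 4 °C and 12 h in white light. For the next 4 days the mutant stood in darkness (tir1 afb123-D) and the wild type under blue light at a fluence rate of 15 µmol/m2/s (WT-BL), and all seedlings had a growth time of 4.5 days. Wild-type seedlings kept in darkness (WT-D, 2 libraries) give the level from which each state is read. A further 2 libraries, of the cry1 cry2 mutant in blue light, entered only steps shared by all libraries. These steps were the level filter of the fit, the estimate of the spread, the alternative scalings and the principal components. No mutant alleles are named in the labels. Nor is it stated there if paired libraries derive from different plates or pools of seedlings, so the p-values measure the spread between these libraries, which may be technical. Light and genotype differ together between the groups, so a difference due to light and one due to the receptors cannot be told apart. Members were all gene models with at least 1 RPKM (reads scaled to the length of the transcript and the size of the library) in at least 2 of the 4 libraries, which 19512 of the 27416 deposited models met. Of these, 531 passed the level filter through the mutant libraries alone and 1080 through the lit libraries alone. The filter sets the direction of such members, also where this is not repeated below.

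TIR1 and the AFB proteins are F-box receptors that bind auxin together with Aux/IAA proteins. The Aux/IAA proteins are then degraded, which frees the auxin response factors (ARFs) bound to them to regulate genes of growth and patterning. A seedling in darkness elongates its hypocotyl, keeps an apical hook and holds its plastids as etioplasts, whereas light absorbed by cryptochromes and phytochromes stops elongation, opens the cotyledons and builds chloroplasts. The comparison shows which transcripts of the lit seedling are found at a like level in a dark seedling with impaired auxin perception, and which are not.

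The mutated genes were looked at before all others. AFB1 stood at 1.45 and 0.819 RPKM in the mutant, 24.2 and 24.6 in the lit and 35.6 and 36.2 in the dark wild type. AFB2 stood at 0.996 and 0.586 RPKM in the mutant, 23.8 and 23.8 in the lit and 50.4 and 51.5 in the dark wild type. Transcripts of these auxin receptor genes were thus at a low level in both mutant libraries and in neither wild-type group. AFB3, another member of the family, stood at 16.7 and 17.98 RPKM in the mutant, 22.2 and 21.4 in the lit and 32.6 and 36.3 in the dark wild type. TIR1 was at 59.96 and 58.8 RPKM in the mutant, 49.3 and 51.1 in the lit and 75.8 and 78.1 in the dark wild type. Against the dark wild type AFB3 and TIR1 were lower in the mutant, by log2 differences of -0.95 (SE 0.07) and -0.37 (SE 0.05). Both kept a clear RNA level in the mutant, so RNA level alone does not show their mutations. The blue light receptor genes CRY1 and CRY2, intact in both groups, differed by 0.00 (SE 0.06) and 0.11 (SE 0.06) on the log2 scale. Recovered totals were 22.2 and 21.3 M reads for the mutant, 23.0 and 20.8 for the lit and 19.3 and 20.2 for the dark wild type. Libraries of a group had an SD of 0.109 to 0.118 on the log2 scale. The presence of root and green tissue was looked at by single markers. These were picked from the close members of their lists, so their like levels in the mutant and the lit wild type follow from that choice. Other root and green tissue genes differed between the groups, as described below, so the markers do not show equal shares of tissue. PER64, a peroxidase of the root endodermis, was at 27.7 and 26.3 RPKM in the mutant, 28.4 and 24.99 in the lit and 101 and 89.7 in the dark wild type. RBCS1A, which encodes a small subunit of Rubisco, was at 9559.9 and 10532 RPKM in the mutant and 10772 and 10758 in the lit wild type.

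Each model was tested by the difference of log2(RPKM + 1), mutant minus lit wild type, which understates the change of models at low levels. An adjusted p under 0.05 in limma counted as a call. Of the 19512 members, 4572 were higher in the mutant (23.4%) and 10325 lower (52.9%), or 76.3% called in either direction, and 17214 had no overlap between the libraries of the groups. By size, 1584 were at least 2-fold higher (8.12%) and 2332 at least 2-fold lower (12.0%), with 529 and 534 past 4-fold. A member was called close where the 95% interval of its difference lay within 1.5-fold either way (0.58 on the log2 scale), which 8428 members met (43.2%). A close member can also be called, as 4027 were, while 4401 were close and not called, and 214 were neither. In whole seedlings fewer cells of a type and less RNA per cell cannot be told apart.

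The split into higher and lower depended on how the libraries were scaled. The median difference of all members was -0.24 with the RPKM values as deposited, -0.16 after upper-quartile scaling and -0.01 after median-ratio scaling. With the last, 6854 members were higher (35.1%) and 6944 lower (35.6%), and with upper-quartile scaling 5311 were higher (27.2%) and 9095 lower (46.6%). The 10 most abundant models held 11.0% and 11.5% of the RPKM sum in the mutant libraries and 7.54% and 7.66% in the lit libraries. LTP2, a lipid transfer protein named here for its abundance after its values were seen, stood at 24771 and 27076 RPKM in the mutant and 466 and 454 in the lit wild type. Differences and close calls below are those of the deposited scale, and list medians are also given relative to the median of all members.

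**Figure D1:**
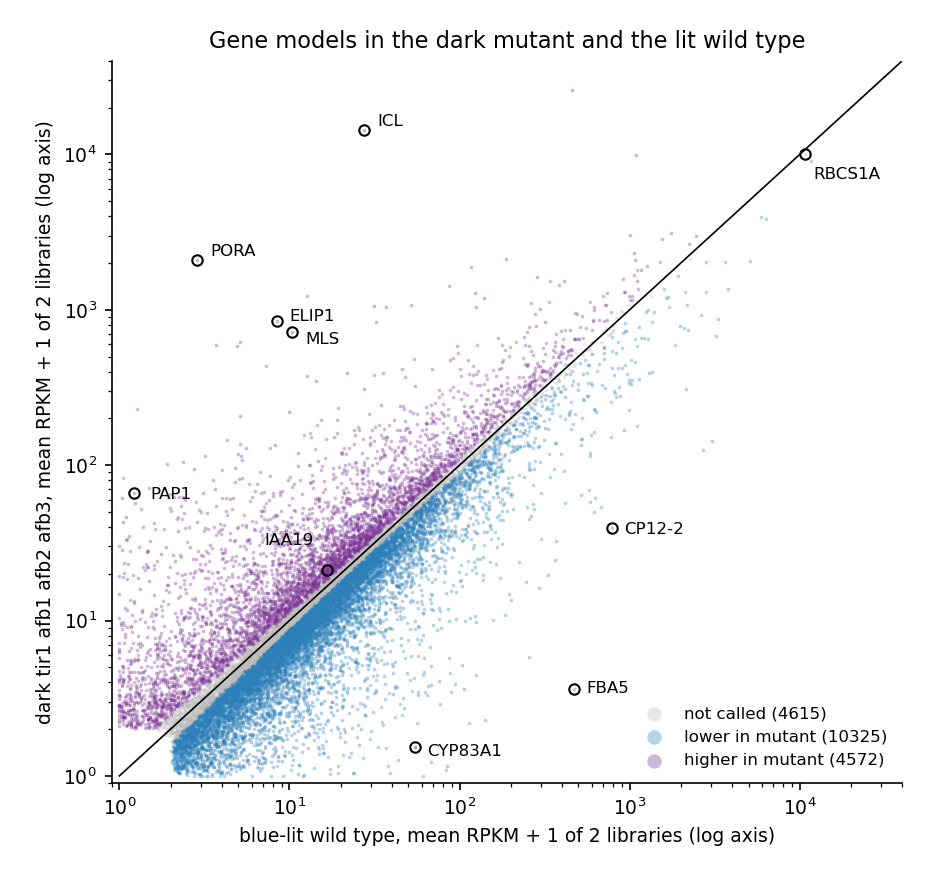
Mean RPKM + 1 of the 2 dark mutant libraries against that of the 2 lit wild-type libraries for 19512 gene models, on log axes, with the diagonal marking equal levels and colours the limma call. RBCS1A and IAA19 lie near the diagonal, PORA, ICL, ELIP1, MLS and PAP1 far above it, and FBA5, CP12-2 and CYP83A1 far below.

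By the same measures, and in comparisons that share libraries with this one, the lit and the dark wild type differed by at least 2-fold in 20.7% of the members and the mutant and the dark wild type in 26.5%, against 20.1% for the mutant and the lit wild type. Close members were 41.8%, 35.6% and 43.2% in the same order. The median absolute log2 difference was 0.48 for light in the wild type, 0.56 for the genotype in darkness and 0.46 between the mutant and the lit wild type. By these measures the dark mutant lay about as far from the lit wild type as the lit wild type did from the dark one. Principal components were computed from all 8 libraries, those of cry1 cry2 included. The first 2 held 52.6% and 38.5% of the variance. The mutant libraries lay at 82.6 and 84.8 on the first and at -43.3 and -45.1 on the second. The lit libraries lay at 20.5 and 22.7, and at 79.0 and 80.1. The dark libraries lay at -56.1 and -55.6, and at -35.7 and -35.5. The mutant and the lit wild type lay on the same side of the dark wild type on the first component and far apart on the second.

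**Figure D2:**
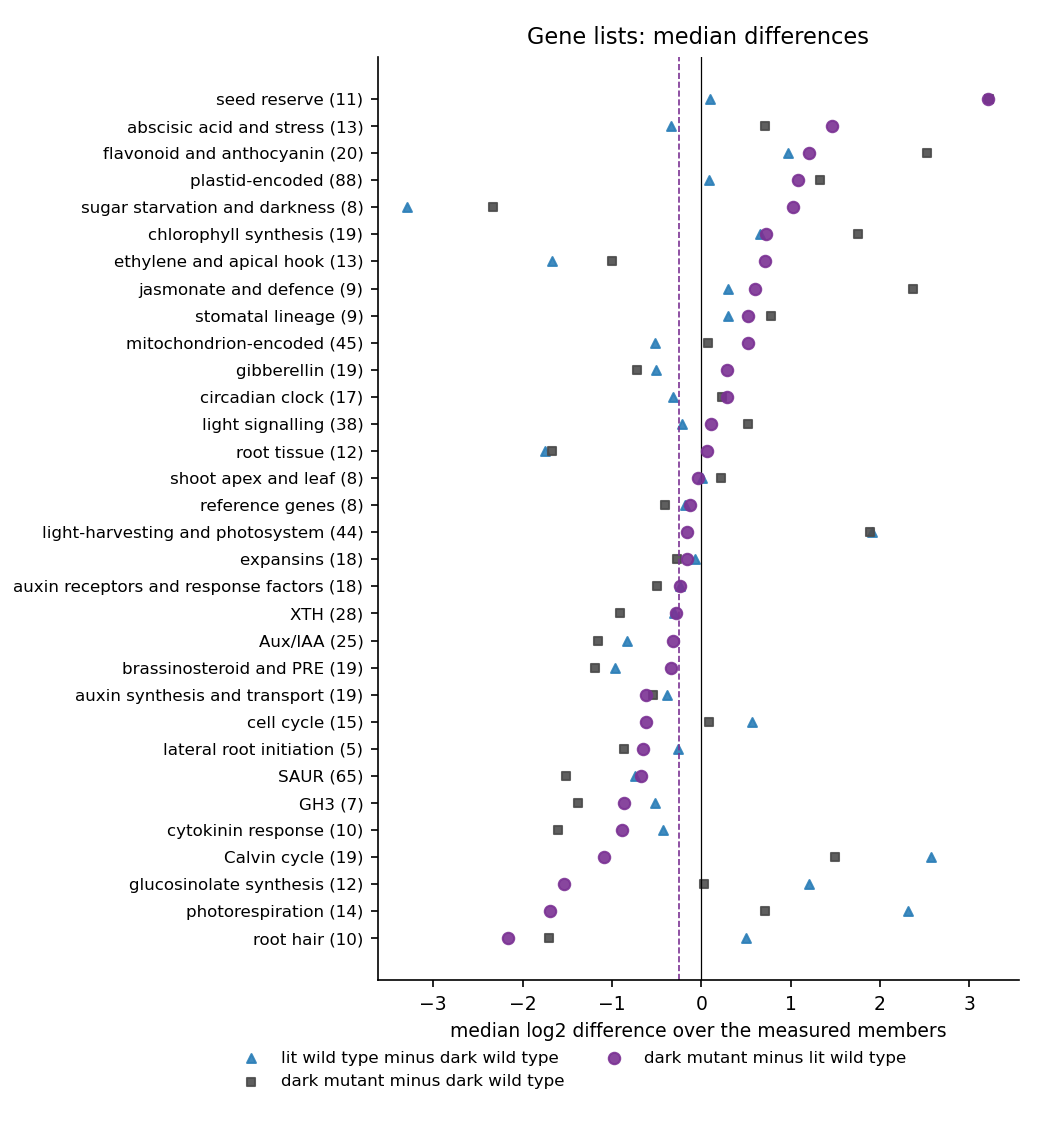
Median log2 difference of each gene list, with the number of measured members in brackets, for the dark mutant minus the lit wild type (circles), the lit minus the dark wild type (triangles) and the dark mutant minus the dark wild type (squares). The dashed line is the median of all members, -0.24, and the lists run from root hair at -2.16 to seed reserve at 3.21; the comparisons share libraries.

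The close members that lay farthest from the dark wild type in both groups included photosynthesis, auxin response and dark-induced genes. LHCA1, which encodes an antenna protein of photosystem I, was at 617 and 619 RPKM in the mutant, 709 and 646 in the lit and 64.4 and 60.6 in the dark wild type. Its difference between the mutant and the lit wild type was -0.13 with a 95% interval of -0.30 to 0.04. Both states were thus about equally far above the dark wild type. BIC2, an inhibitor of cryptochrome photoactivation, was at 6.81 and 7.24 RPKM in the mutant and 7.99 and 8.09 in the lit wild type, and at 0 and 0.0848 in the dark wild type. CaS, the calcium sensing protein of the thylakoid, stood at 181 and 164 RPKM in the mutant, 135 and 145 in the lit and 16.1 and 17.1 in the dark wild type. LP1, a lipid transfer protein, was at 734 and 742 RPKM in the mutant, 754 and 849 in the lit and 95.5 and 87.4 in the dark wild type. For these 3 genes the dark wild-type libraries were the low ones by a wide margin. DCF, needed to place ferulate in cutin, was at 28.8 and 25.5 RPKM in the mutant, 29.8 and 29.6 in the lit and 2.61 and 1.87 in the dark wild type. BGLU18, a beta-glucosidase that releases abscisic acid from its glucose ester, was at 13.5 and 11.7 RPKM in the mutant, 12.4 and 14.4 in the lit and 0.757 and 0.671 in the dark wild type. AT3G56290 and the glycine-rich protein gene AT1G04800 were also close and above the dark wild type, with differences from the lit wild type of -0.27 and 0.33.

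Other close members were low in both states and high in the dark wild type. IAA19, an Aux/IAA gene that auxin induces, was at 21.4 and 18.99 RPKM in the mutant, 16.02 and 15.1 in the lit and 183 and 177 in the dark wild type, with a difference of 0.35 with a 95% interval of 0.14 to 0.57; under median-ratio scaling it was 0.60 and the gene no longer close. DRM1, a dormancy-associated gene induced by darkness and low sugar, was at 207 and 226 RPKM in the mutant, 269.9 and 224 in the lit and 2022 and 2031 in the dark wild type. HGO, homogentisate dioxygenase of tyrosine breakdown, was at 16.7 and 15.8 RPKM in the mutant, 15.2 and 15.3 in the lit and 134 and 132 in the dark wild type. In all of these the lit and mutant libraries lay together at a small part of the dark level. The dirigent-like gene AT4G11190 followed them, at 13.7 and 13.8 RPKM in the mutant, 17.7 and 14.03 in the lit and 156 and 141 in the dark wild type.

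**Figure D3:**
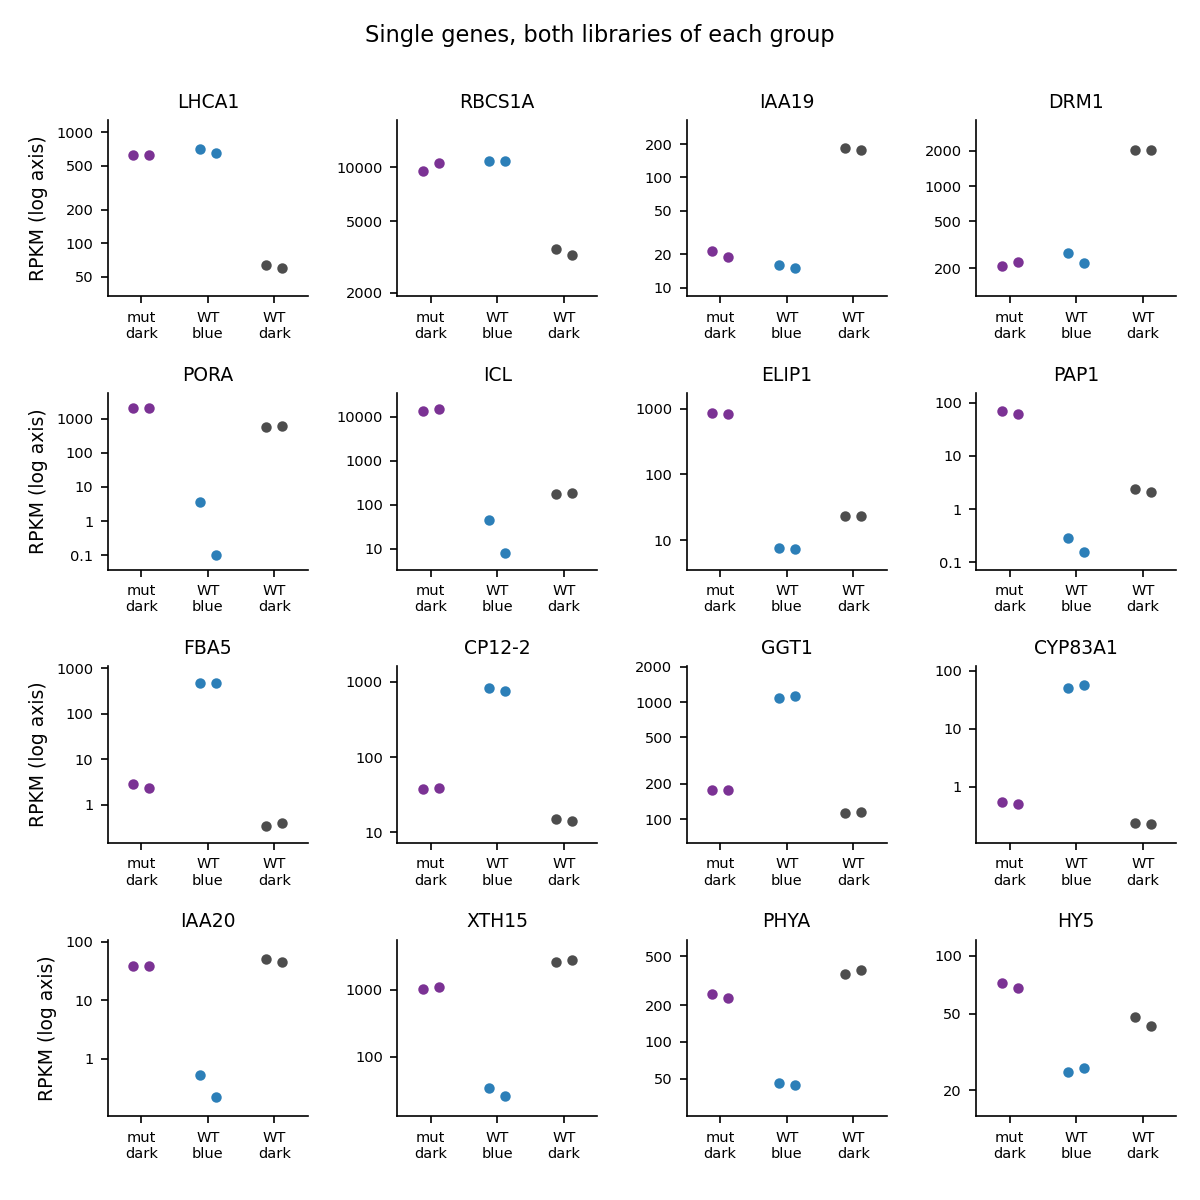
RPKM of 16 genes in both libraries of the dark mutant, the blue-lit wild type and the dark wild type, each point a library, on log axes that differ between panels. In the top row the mutant lies with the lit wild type (LHCA1 617 and 619 RPKM in the mutant and 709 and 646 in the lit wild type), in the second row above both wild-type groups, in the third row nearer the dark wild type, and in the bottom row with or above the dark wild type or between the groups.

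Antenna and photosystem genes had a median difference near 0 between the dark mutant and the lit wild type, while single members parted strongly. All 44 genes of the list were members, with 16 higher, 22 lower, 6 not called and 17 close, a share no larger than the 43.2% of all members. With median-ratio scaling 21 were higher and 14 lower. Their median difference was -0.16 (0.09 relative to all members), and it turned to 0.10 with that scaling. Set against the dark wild type, the median was 1.92 in the lit wild type and 1.89 in the mutant, and all 44 genes were called higher in the mutant than in the dark wild type (28.2% of all members) and 39 in the lit than in the dark wild type (34.8% of all members). PSAD-1, the ferredoxin-docking subunit of photosystem I, was at 1214 and 1234 RPKM in the mutant, 1251 and 1219 in the lit and 318 and 321 in the dark wild type. PSBQ-2 and PSBY, small subunits of photosystem II, differed between the mutant and the lit wild type by -0.03 (interval -0.18 to 0.11) and -0.05 (-0.22 to 0.13). These genes therefore stood at about the lit level in a dark plant.

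Genes of the antenna of photosystem II parted most within the list. LHCB2.1, which encodes a protein of its mobile outer antenna, was at 1064 and 1078 RPKM in the mutant, 51 and 50.3 in the lit and 81.96 and 82.8 in the dark wild type. LHCB2.2 was at 1029 and 1069 RPKM in the mutant, 35.7 and 36.6 in the lit and 60.4 and 56.4 in the dark wild type. LHCB2.3 was at 369 and 375 RPKM in the mutant, 11.9 and 11.5 in the lit and 56.9 and 56.2 in the dark wild type. The log2 differences were 4.37 (SE 0.08, adjusted p = 3.00e-12), 4.82 (SE 0.08, adjusted p = 2.00e-12) and 4.88 (SE 0.10, adjusted p = 1.04e-11), though reads of LHCB2.1 and LHCB2.2 may be split between these near-identical copies. LHCB3, which encodes another subunit of the antenna trimers, stood at 1185 and 1184 RPKM in the mutant, 144 and 132 in the lit and 190.4 and 199 in the dark wild type, a difference of 3.09 (SE 0.07). In each of these genes the lit wild type was the lowest of the 3 groups. LHCB1.4, a gene of the major antenna protein, went the other way, at 301 and 316 RPKM in the mutant, 2339 and 1978 in the lit and 51.5 and 48.5 in the dark wild type (log2 difference -2.80, SE 0.08). Of the genes of electron carriers, PETE2 (plastocyanin), PETC (the Rieske protein) and FNR1 (ferredoxin-NADP reductase) were lower in the mutant, with log2 differences of -1.51 (SE 0.07), -1.5 (SE 0.06) and -1.84 (SE 0.07), whereas PETE1, the other plastocyanin gene, was higher (0.70, SE 0.08).

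Carbon fixation genes were lower in the dark mutant than in the lit wild type, while all 19 were above the dark wild type. Of 19 Calvin cycle genes, 17 were lower (52.9% of all members), 1 was higher and 1 was not called. Their median was -1.09, or -0.85 relative to all members. All 19 were called higher than in the dark wild type, in the mutant and in the lit wild type alike, with medians of 1.5 and 2.57. Among all members the shares called higher were 28.2% in the mutant and 34.8% in the lit wild type. RBCS1A was the one that was not called, at the levels given above and 3523 and 3244 RPKM in the dark wild type, with a difference of -0.10 with a 95% interval of -0.33 to 0.13; other RBCS copies share sequence with it. RCA, Rubisco activase, was at 882 and 861 RPKM in the mutant, 3212 and 3408 in the lit and 226 and 226 in the dark wild type (log2 difference -1.92, SE 0.07, adjusted p = 4.93e-10). CP12-2, a small protein that holds phosphoribulokinase and glyceraldehyde-3-phosphate dehydrogenase in an inactive complex in the dark, was at 38.3 and 38.5 RPKM in the mutant, 812 and 759 in the lit and 15.2 and 14.3 in the dark wild type (log2 difference -4.32, SE 0.08, adjusted p = 3.74e-12). Its near relative CP12-1 was close, with a difference of -0.38 (interval -0.54 to -0.22). The glyceraldehyde-3-phosphate dehydrogenase genes GAPB and GAPA-2 were lower, with log2 differences of -1.55 and -1.53, and TIM, triosephosphate isomerase, was the one that was higher (0.51).

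Photorespiration, which recovers the carbon lost when Rubisco takes up oxygen, parted further. Of 14 genes, 13 were lower in the mutant (52.9% of all members) and 1 was higher, with a median of -1.69 (-1.45 relative to all members). Against the dark wild type the median was 2.32 in the lit wild type and 0.72 in the mutant. All 14 were called higher in the lit wild type (34.8% of all members). In the mutant 11 were higher (28.2% of all members) and 2 lower. GGT1, the peroxisomal glutamate:glyoxylate aminotransferase, was at 177 and 176 RPKM in the mutant, 1082 and 1124 in the lit and 113 and 115 in the dark wild type (log2 difference -2.64, SE 0.06, adjusted p = 1.65e-11). SHM1, mitochondrial serine hydroxymethyltransferase, was at 170.3 and 164 RPKM in the mutant, 917 and 941 in the lit and 56.2 and 53.8 in the dark wild type. AGT, which makes glycine from serine and glyoxylate, was at 149 and 154 RPKM in the mutant, below both the lit (781 and 771) and the dark wild type (329 and 326). The lit libraries were the highest in each of these 3 genes. HPR1, hydroxypyruvate reductase, differed by -2.30 (SE 0.06). CAT2, the peroxisomal catalase, was the higher one, at 784 and 774 RPKM in the mutant and 482 and 539.9 in the lit wild type.

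**Figure D4:**
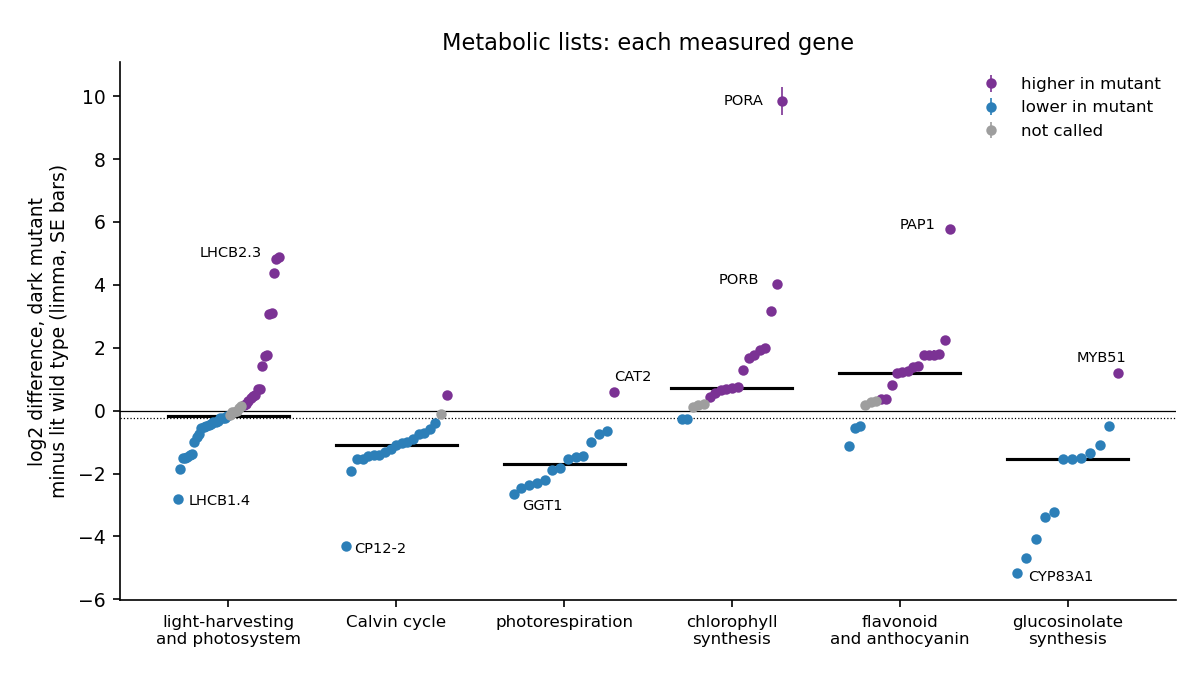
Log2 difference, dark mutant minus lit wild type, for each measured gene of 6 metabolic lists, with limma SE bars, calls in colour, a thick line at the list median and a dotted line at the median of all members (-0.24). Calvin cycle, photorespiration and glucosinolate genes lie mostly below 0 and chlorophyll synthesis and flavonoid genes mostly above, while the antenna and photosystem genes spread from -2.80 (LHCB1.4) to 4.88 (LHCB2.3).

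Most genes of chlorophyll synthesis were higher in the dark mutant than in either wild-type group. Of 19, 14 were higher than in the lit wild type (23.4% of all members), 2 were lower and 3 not called. The median was 0.73 (0.97 relative to all members). Against the dark wild type all 19 were called higher in the mutant (28.2% of all members). Their median was 1.76, against 0.66 for the lit wild type. PORA and PORB encode the light-dependent protochlorophyllide oxidoreductases of etioplasts, which need light to act. PORA was at 2129.6 and 2065 RPKM in the mutant, 3.66 and 0.1002 in the lit and 587 and 631 in the dark wild type, a difference of 9.86 (SE 0.45, adjusted p = 3.72e-09). The lit libraries disagreed on PORA, and the difference was 10.9 without the first lit library and 8.82 without the second. PORB was at 1859.6 and 1915 RPKM in the mutant, 112 and 119 in the lit and 613 and 652 in the dark wild type (log2 difference 4.02, SE 0.06, adjusted p = 8.83e-13). Both genes were highest in the mutant and lowest in the lit wild type. PORC, another member of the family, was at 77.9 and 71.1 RPKM in the mutant, 89.6 and 89.7 in the lit and 12.3 and 13.01 in the dark wild type, and so was close. CAO, chlorophyllide a oxygenase, which makes chlorophyll b, differed by 3.16 (SE 0.08), and GUN4, which activates magnesium chelatase, by 2.00 (SE 0.07). CHLG and DVR, for late steps, were close, with differences of 0.11 and 0.17.

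Early light-induced proteins, which bind pigments in greening or stressed thylakoids, had genes at a high level in the dark mutant and at a low one in both wild-type groups. ELIP1 was at 843 and 838 RPKM in the mutant, 7.68 and 7.298 in the lit and 23.4 and 22.98 in the dark wild type (log2 difference 6.63, SE 0.05, adjusted p = 3.52e-14). ELIP2 was at 628 and 615 RPKM in the mutant, 4.86 and 3.405 in the lit and 31.4 and 28.3 in the dark wild type (log2 difference 6.94, SE 0.11, adjusted p = 1.32e-12). The mutant libraries lay above all wild-type libraries in both genes.

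Flavonoid genes, known as light-induced, were mostly above the lit level in the dark mutant. Of 22 genes 20 were members, with 14 higher (23.4% of all members), 3 lower and 3 not called. The median was 1.21 (1.45 relative to all members). The level filter was passed by 5 of the 20, PAP1 among them, through the mutant libraries alone, which sets their direction. It was passed by 2, MYB12 among them, through the lit libraries alone. With the dark wild type as reference, the median was 2.52 in the mutant and 0.97 in the lit wild type. CHS, chalcone synthase, which makes the first flavonoid skeleton, was at 461 and 466 RPKM in the mutant, 166 and 186 in the lit and 23.1 and 21.8 in the dark wild type (log2 difference 1.39, SE 0.07, adjusted p = 4.84e-09). F3H, flavanone 3-hydroxylase, was at 87.8 and 84.8 RPKM in the mutant, 24.7 and 23.3 in the lit and 1.82 and 1.51 in the dark wild type. The groups were ordered the same way in both genes, with the mutant highest and the dark wild type lowest. PAP1, a MYB factor that turns on anthocyanin genes, was at 69.4 and 61.6 RPKM in the mutant, 0.286 and 0.158 in the lit and 2.38 and 2.11 in the dark wild type (log2 difference 5.77, SE 0.13, adjusted p = 1.77e-11). The MYB factors of flavonol synthesis did not go together, with MYB111 higher (log2 difference 2.25, SE 0.13) and MYB12 lower (log2 difference -1.13, SE 0.13). UGT78D2, a flavonoid glucosyltransferase, was close, at 33.02 and 30.3 RPKM in the mutant and 26.8 and 29.2 in the lit wild type.

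Genes that serve the use of seed oil were among the largest differences of all members. ICL, isocitrate lyase of the glyoxylate cycle, was at 13870.3 and 14712 RPKM in the mutant, 45.3 and 7.94 in the lit and 181 and 190.5 in the dark wild type (log2 difference 9.46, SE 0.51, adjusted p = 1.61e-08). Here too the lit libraries differed, and the difference was 10.6 without the first and 8.27 without the second. MLS, malate synthase of the same cycle, was at 747 and 694 RPKM in the mutant, 12.1 and 6.75 in the lit and 24.1 and 25.8 in the dark wild type (log2 difference 6.16, SE 0.17, adjusted p = 8.18e-11). PCK1, phosphoenolpyruvate carboxykinase, which leads from the cycle to sugar, was at 1310.3 and 1255 RPKM in the mutant, 123 and 121 in the lit and 696 and 727 in the dark wild type. The mutant was the highest group in each of the 3 genes and the lit wild type the lowest. Of the 11 genes of the seed reserve list 10 were higher in the mutant (23.4% of all members), 5 of which passed the level filter through the mutant libraries alone, and 1 was lower, with a median of 3.21 (3.45 relative to all members). The seed storage protein gene CRU3 (a cruciferin) was at 29.1 and 28.2 RPKM in the mutant against 0.437 and 0.161 in the lit wild type. The oleosin gene OLEO2 went the other way (5.75 and 5.698 RPKM in the mutant and 12.98 and 9.94 in the lit wild type).

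Other members with the largest excess in the mutant had varied annotations. AT1G80130, a tetratricopeptide repeat protein, was at 231 and 229 RPKM in the mutant, 0.443 and 0.105 in the lit and 6.44 and 5.07 in the dark wild type. AT2G47780, annotated as a rubber elongation factor protein, was at 574 and 612 RPKM in the mutant, 3.704 and 1.702 in the lit and 154 and 159 in the dark wild type, and FTM1, a stearoyl-acyl carrier protein desaturase, at 582 and 579 RPKM in the mutant, 4.57 and 3.26 in the lit and 22.3 and 22.7 in the dark wild type. In AT1G80130 and FTM1 the dark wild type lay much nearer to the lit wild type than to the mutant. AT5G44440, of the berberine bridge enzyme family, was at 1204 and 1258 RPKM in the mutant and 739 and 779.9 in the dark wild type, against 12.9 and 10.7 in the lit one. AT5G22500, annotated as fatty acid reductase 1, was likewise high in both dark groups, at 449 and 414 RPKM in the mutant and 279 and 279 in the dark wild type, against 7.39 and 5.12 in the lit one. The cupin genes AT5G39150 and AT5G39180 had log2 differences of 6.29 and 5.90, and their reads may be shared with near-identical neighbours.

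Members with the largest deficit in the mutant were mostly at a low level in the dark wild type too. FBA5, a fructose-bisphosphate aldolase, was at 2.895 and 2.36 RPKM in the mutant, 462 and 473 in the lit and 0.3398 and 0.396 in the dark wild type (log2 difference -7.02, SE 0.09, adjusted p = 5.22e-13). ECS1 was at 4.67 and 4.92 RPKM in the mutant, 249 and 262 in the lit and 2.08 and 2.56 in the dark wild type (log2 difference -5.47, SE 0.08, adjusted p = 6.27e-13). AT3G05727, annotated in the family of the S locus-related pollen coat proteins, was listed at 0 in both mutant libraries, at 58.2 and 60.96 RPKM in the lit and at 0 and 0.193 in the dark wild type. All 3 genes were thus at a low level or at 0 in both dark groups. AT4G22485 and AT4G22505, of the lipid transfer and seed storage albumin superfamily, differed by -5.77 and -5.23, and AT3G16670, of the Ole e 1 pollen allergen family, by -5.15. The paired cineole terpene synthase genes AT3G25820 and AT3G25830 differed by -6.24 and -6.19, a pair too alike for their reads to be told apart. Their enzyme is known from Arabidopsis roots. CYP81F4, which modifies indole glucosinolates, was at 1.44 and 1.12 RPKM in the mutant, 146 and 133 in the lit and 30.7 and 31.1 in the dark wild type, and the neighbouring model AT4G37409 (-5.71) may share its reads. AT5G37990, a methyltransferase, differed by -5.11.

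Glucosinolates are sulfur-rich defence compounds of the cabbage family, and 11 of the 12 genes of their synthesis were lower in the mutant (52.9% of all members), 3 of which passed the level filter through the lit libraries alone, with a median of -1.54 (-1.3 relative to all members). The branch that starts from methionine was at a low level in both dark groups. CYP83A1 was at 0.546 and 0.513 RPKM in the mutant, 51.2 and 55.97 in the lit and 0.239 and 0.228 in the dark wild type (log2 difference -5.16, SE 0.10, adjusted p = 5.37e-12). CYP79F1, the entry enzyme of this branch, was at 0.0228 and 0.0237 RPKM in the mutant, 15.1 and 17.4 in the lit and 0.0262 and 0 in the dark wild type, and MAM1, of chain elongation, at 1.07 and 1.301 RPKM in the mutant, 54.1 and 57.1 in the lit and 0.449 and 0.314 in the dark wild type. For this branch the mutant thus stood with the dark wild type. The gene that was higher was MYB51, a regulator of the branch that starts from tryptophan (15.7 and 12.6 RPKM in the mutant and 5.53 and 5.59 in the lit wild type, log2 difference 1.2, SE 0.10).

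Genes of the jasmonate and defence list split, with 5 of 9 measured genes higher (23.4% of all members) and 4 lower (52.9%). Genes of jasmonate synthesis went both ways. LOX2, the plastid lipoxygenase of jasmonate synthesis, was at 7.27 and 6.97 RPKM in the mutant, 52.6 and 67 in the lit and 0.0365 and 0 in the dark wild type. AOC2, allene oxide cyclase, was at 9.12 and 8.66 RPKM in the mutant, 103 and 110.4 in the lit and 0.264 and 0.353 in the dark wild type. Both were highest in the lit wild type and lowest in the dark one. OPR3, the reductase of a later step, was higher in the mutant, at 53.1 and 52.7 RPKM in the mutant, 19.2 and 20.8 in the lit and 18.4 and 18.3 in the dark wild type. AOC1, another allene oxide cyclase, was higher too, by 0.66 (SE 0.09). Genes that jasmonate induces also went both ways. VSP1 and VSP2, vegetative storage proteins, were lower in the mutant, by log2 differences of -1.56 (SE 0.09) and -0.70 (SE 0.12), and the repressor genes JAZ1 and JAZ10 were higher. JAZ1 was at 164 and 157 RPKM in the mutant, 11.5 and 12.9 in the lit and 21.7 and 23.3 in the dark wild type (log2 difference 3.61, SE 0.07, adjusted p = 7.92e-12), and JAZ10 at 28.9 and 28.9 RPKM in the mutant, 1.41 and 1.795 in the lit and 4.02 and 4.75 in the dark wild type.

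Of the Aux/IAA family, 25 of 29 genes were members, with 7 higher, 15 lower and 3 not called (8 higher and 11 lower with median-ratio scaling), and 10 of the 25 were close, near the 43.2% of all members. The median was -0.32 (-0.08 relative to all members). Against the dark wild type the median was -0.83 in the lit wild type and -1.16 in the mutant, where 24 of 25 genes were called lower (50.8% of all members). IAA2 was at 73.9 and 63.9 RPKM in the mutant, 67.8 and 65.4 in the lit and 217 and 203 in the dark wild type, a difference of 0.04 with a 95% interval of -0.11 to 0.20. Like IAA19 it thus stood at about the lit level in the mutant. IAA29 was at 0.867 and 0.711 RPKM in the mutant, 20.2 and 17.7 in the lit and 24.2 and 22.4 in the dark wild type (log2 difference -3.48, SE 0.09, adjusted p = 2.96e-11). IAA14, a repressor in lateral root founder cells, was at 1.49 and 1.74 RPKM in the mutant, 10.1 and 10.2 in the lit and 9.16 and 9.97 in the dark wild type. Both genes were lower in the mutant than in all wild-type libraries. In the mutant IAA20, which lacks the degron that the receptors bind, was far above the lit wild type and somewhat below the dark one. Its levels were 38.4 and 39.3 RPKM in the mutant and 51.8 and 45.6 in the dark wild type against 0.532 and 0.221 in the lit one (log2 difference 4.86, SE 0.10, adjusted p = 1.00e-11).

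Genes of auxin conjugation, synthesis and transport went both ways between the mutant and the lit wild type, with lower calls about as frequent as among all members (52.9%). Of 7 measured GH3 genes, which encode enzymes that join auxin to amino acids, 4 were lower, 1 higher and 2 not called. GH3.2 was at 0.572 and 0.726 RPKM in the mutant, 5.33 and 6.24 in the lit and 5.202 and 7.52 in the dark wild type (log2 difference -2.04, SE 0.14). As 1 of 2 such GH3 genes, GH3.2 passed the level filter through the lit libraries alone, which sets its direction. GH3.5 was close, at 13.6 and 13.1 RPKM in the mutant and 11.9 and 12.3 in the lit wild type, and both groups lay far below the dark wild type (59.9 and 61.2). Of 19 genes of synthesis and transport, 12 were lower, 5 higher and 2 not called (10 lower and 7 higher with median-ratio scaling), with a median of -0.61. PIN2, the root efflux carrier, was at 2.75 and 2.68 RPKM in the mutant, 13.5 and 15.5 in the lit and 14.7 and 14.7 in the dark wild type (log2 difference -2.06, SE 0.09, adjusted p = 2.11e-09). PIN3 and PIN4, which act in tropic bending and in the root tip, were close (0.07 and 0.02). Of the flavin monooxygenases that make auxin, YUC8 was higher, at 8.76 and 9.74 RPKM in the mutant, 3.72 and 2.82 in the lit and 12.9 and 14.9 in the dark wild type (log2 difference 1.27, SE 0.11, adjusted p = 8.71e-07), and so was YUC5, by 0.62 (SE 0.15). YUC6 and YUC9 were lower, with log2 differences of -1.24 (SE 0.11) and -0.99 (SE 0.11). TAA1 and TAR2, aminotransferases of the step before, were higher by 0.70 (SE 0.07) and 0.72 (SE 0.11). Of 18 receptor and ARF genes, 11 were lower, 3 higher and 4 not called (7 lower and 5 higher with median-ratio scaling), and 10 were close (43.2% of all members), with a median of -0.24, the median of all members. ARF2 was at 86.3 and 74.5 RPKM in the mutant and 81.6 and 80.03 in the lit wild type, and ARF5 and ARF3 differed by -0.67 and -1.0.

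SAUR genes, many of which auxin induces quickly and which promote cell expansion, were lower in the mutant in most cases, as members at large were. Of 79 genes 65 were members, with 40 lower (against 52.9% of all members), 18 higher and 7 not called, and 5 were close. The level filter was passed by 9 of the 65, SAUR17 among them, through the mutant libraries alone. It was passed by 6 through the lit libraries alone, and for all of these it sets the direction. The median was -0.67 (-0.43 relative to all members), and against the dark wild type it was -0.75 in the lit wild type and -1.51 in the mutant. SAUR16 was at 3.7 and 3.07 RPKM in the mutant, 28.5 and 31.5 in the lit and 28.1 and 26.3 in the dark wild type (log2 difference -2.82, SE 0.09, adjusted p = 2.08e-10). SAUR50 was at 7.12 and 8.81 RPKM in the mutant, 37.2 and 37.8 in the lit and 63.7 and 63.5 in the dark wild type. In both genes the mutant alone was low. SAUR31 and SAUR55 differed by -3.48 (SE 0.10) and -2.94 (SE 0.07). In the other direction, SAUR79 was at 14.4 and 13.96 RPKM in the mutant against 0.916 and 1.01 in the lit wild type, and SAUR17 at 7.09 and 4.96 RPKM in the mutant and 0.419 and 0.154 in the lit wild type. SAUR78 was close, at 73.9 and 80.6 RPKM in the mutant and 80.3 and 79.04 in the lit wild type.

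Genes of cell wall loosening included both higher and lower members, as members at large did (23.4% higher and 52.9% lower). Of 18 measured expansin genes 7 were higher and 9 lower, and of 28 measured XTH genes, which encode enzymes that cut and join xyloglucan, 11 were higher and 15 lower. With median-ratio scaling the expansins were 9 higher and 7 lower and the XTH genes 13 and 13. XTH15 was at 1027 and 1098 RPKM in the mutant and 2592 and 2725 in the dark wild type, against 34.01 and 26.6 in the lit one (log2 difference 5.10, SE 0.10, adjusted p = 6.01e-12). XTH19 was at 183 and 177 RPKM in the mutant, 32.5 and 32.4 in the lit and 195 and 196 in the dark wild type. For both genes the dark mutant lay nearer to the dark wild type than to the lit one. XTH6 was at 2.67 and 2.23 RPKM in the mutant, 86.4 and 90.3 in the lit and 0.372 and 0.399 in the dark wild type (log2 difference -4.70, SE 0.09, adjusted p = 6.01e-12). XTH17 was close, at 87.99 and 88.7 RPKM in the mutant, 88.6 and 78.7 in the lit and 437 and 447 in the dark wild type. Among expansins, EXPA9 was at 111 and 109.5 RPKM in the mutant, 14.7 and 15.7 in the lit and 137 and 142 in the dark wild type. EXPA1 was at 63.7 and 64.2 RPKM in the mutant, 189 and 218 in the lit and 39.9 and 40.5 in the dark wild type, a difference of -1.65 (SE 0.06). In both expansin genes the mutant lay nearer to the dark than to the lit wild type.

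**Figure D5:**
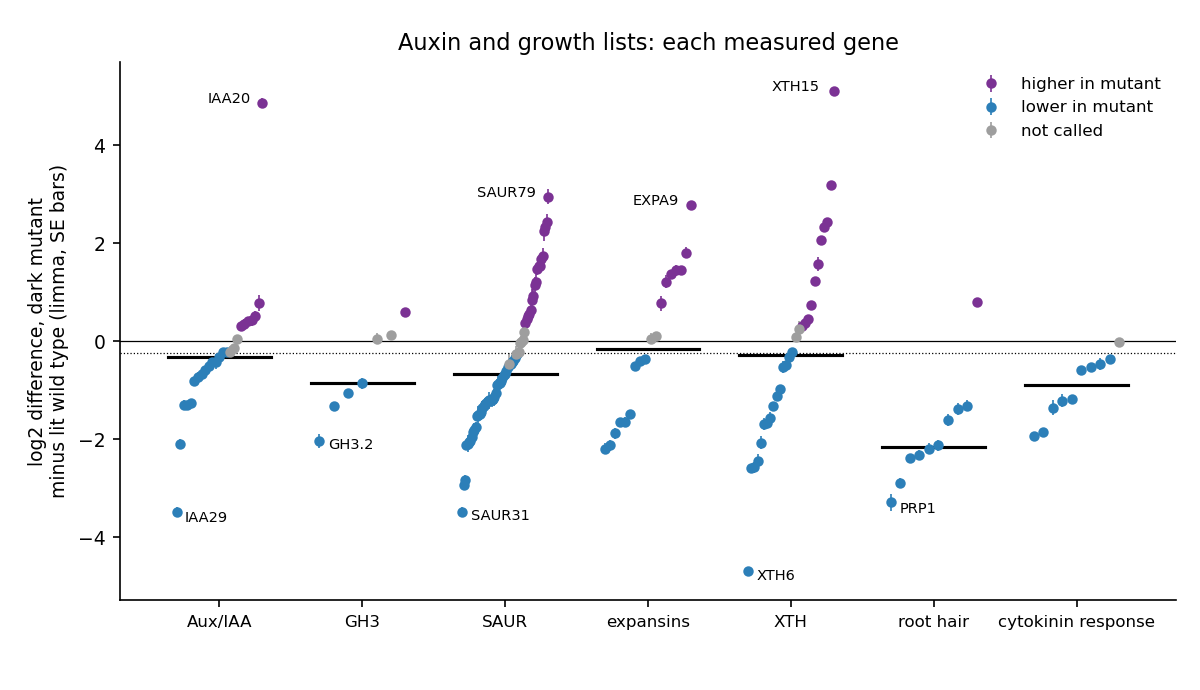
Log2 difference, dark mutant minus lit wild type, for each measured gene of 7 auxin, growth and hormone lists, with limma SE bars, calls in colour, a thick line at the list median and a dotted line at the median of all members (-0.24). Root hair genes lie below 0 but for 1, cytokinin response genes are at or below 0, and XTH genes run from -4.70 (XTH6) to 5.10 (XTH15).

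Brassinosteroid genes and the PRE genes of the same growth pathway lay about as near to the lit level as members at large, with 10 of 19 close (43.2% of all members), 13 lower, 3 higher (8 and 5 with median-ratio scaling) and a median of -0.33 (-0.09 relative to all members). Against the dark wild type all 19 were called lower in the mutant (50.8% of all members) and 17 in the lit wild type (40.0% of all members). DET2, the steroid reductase, was at 14.04 and 15.3 RPKM in the mutant and 15.5 and 13.9 in the lit wild type. BR6OX2, the last enzyme of the pathway, was at 15.8 and 15.2 RPKM in the mutant, 14.3 and 13.8 in the lit and 34.3 and 32.8 in the dark wild type. HBI1, a growth-promoting bHLH factor, was lower (log2 difference -1.92, SE 0.07). PRE6, a small growth-promoting HLH protein, was higher (40.4 and 47.4 RPKM in the mutant, 11.4 and 10.6 in the lit and 121 and 127 in the dark wild type).

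Gibberellin genes showed no single direction, with 10 of 19 measured genes higher (23.4% of all members), 7 lower (52.9%) and 2 not called. GA2OX6, which inactivates gibberellin, was at 47.97 and 45.9 RPKM in the mutant, 4.42 and 4.31 in the lit and 19.5 and 20.2 in the dark wild type (log2 difference 3.16, SE 0.06, adjusted p = 7.36e-12). GASA4 was at 1575 and 1506 RPKM in the mutant, 324 and 355 in the lit and 3226 and 2779 in the dark wild type and GASA6 at 18.8 and 16.6 RPKM in the mutant, 144 and 200.02 in the lit and 205 and 188 in the dark wild type. These gibberellin-regulated genes thus parted, GASA4 lying toward the dark level and GASA6 below both wild-type groups. The receptor gene GID1A was close (-0.05, interval -0.20 to 0.09).

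Ethylene and apical hook genes were higher in the mutant than in the lit wild type in 11 of 13 cases (23.4% of all members). There was 1 lower and 1 not called, and the median was 0.71 (0.96 relative to all members). Relative to the dark wild type, the median was -0.99 in the mutant and -1.67 in the lit wild type. ACS6, an enzyme that makes the precursor of ethylene, was at 63.3 and 54.4 RPKM in the mutant, 6.01 and 7.11 in the lit and 9.01 and 9.11 in the dark wild type (log2 difference 2.98, SE 0.09, adjusted p = 1.39e-10), and ACO1, of the step that makes ethylene, at 34.7 and 36.5 RPKM in the mutant, 3.76 and 3.2 in the lit and 8.42 and 7.48 in the dark wild type. The mutant was the highest of the groups in both genes. EIN3, the master transcription factor of the pathway, was close, at 71.4 and 68.5 RPKM in the mutant, 69.8 and 71.3 in the lit and 147 and 148 in the dark wild type.

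Cytokinin response genes were lower in the mutant in 9 of 10 cases (52.9% of all members), with 1 not called. Their median was -0.88 (-0.64 relative to all members), and 2 of the 10 passed the level filter through the lit libraries alone. ARR4, a type-A response regulator, was at 20.7 and 22.2 RPKM in the mutant, 77.8 and 82.7 in the lit and 68.01 and 71.7 in the dark wild type (log2 difference -1.86, SE 0.06, adjusted p = 1.76e-10). ARR6 was at 4.45 and 5.25 RPKM in the mutant, 21.3 and 21.5 in the lit and 32.5 and 28.98 in the dark wild type. The mutant was below both wild-type groups in both genes. Of the abscisic acid and stress list, 10 of 13 genes were higher (23.4% of all members), 2 lower and 1 not called, with a median of 1.46. ADH1, alcohol dehydrogenase, was at 217 and 221 RPKM in the mutant, 10.1 and 7.64 in the lit and 45.5 and 44.98 in the dark wild type (log2 difference 4.49, SE 0.11, adjusted p = 3.54e-11). RD29A, a gene of drought and cold response, was at 251 and 232 RPKM in the mutant, 61.6 and 71.6 in the lit and 28.99 and 32.7 in the dark wild type, and DREB2A, a transcription factor of drought and heat, at 46.4 and 41.7 RPKM in the mutant, 5.64 and 6.57 in the lit and 6.32 and 6.24 in the dark wild type. COR15A, a cold-regulated chloroplast protein, was higher in the lit wild type (5.92 and 5.15 RPKM in the mutant and 24.7 and 39.8 in the lit wild type).

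Photoreceptor and light signalling genes spread widely, with 18 of 38 higher in the mutant (23.4% of all members), 13 lower (52.9%) and 7 not called. With median-ratio scaling 24 were higher and 7 lower. On the deposited scale 15 were close (43.2% of all members). PHYA, the phytochrome that accumulates in darkness, was at 246 and 230.4 RPKM in the mutant, 46.4 and 44.3 in the lit and 362 and 384 in the dark wild type (log2 difference 2.37, SE 0.06, adjusted p = 2.67e-11). PIF4, a transcription factor that promotes growth in the dark, was at 23.7 and 21.9 RPKM in the mutant, 9.68 and 8.73 in the lit and 15.3 and 16.7 in the dark wild type (log2 difference 1.22, SE 0.08, adjusted p = 6.24e-08). HY5, which promotes photomorphogenesis, was at 71.6 and 67.9 RPKM in the mutant, 24.8 and 25.9 in the lit and 48.2 and 43.2 in the dark wild type (log2 difference 1.42, SE 0.06, adjusted p = 3.46e-09). The growth-promoting PIF4 and the photomorphogenesis factor HY5 were thus both above the lit level, and the lit wild type was the lowest group in all 3. BBX28, a repressor of HY5 activity, was at 48.7 and 45.2 RPKM in the mutant, 3.1698 and 3.38 in the lit and 78.4 and 84.4 in the dark wild type. SPA3, a partner of the COP1 ubiquitin ligase, was close, at 23.1 and 20.1 RPKM in the mutant, 21.2 and 20.8 in the lit and 5.34 and 5.78 in the dark wild type. PIF7, a factor of the shade response, and BIC1 were lower than in the lit wild type, with log2 differences of -1.77 (SE 0.10) and -1.32 (SE 0.18).

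Of 17 clock genes, 9 were higher (23.4% of all members), 7 lower (52.9%) and 1 not called. The labels give no time of day for these seedlings. PRR9 was at 23.7 and 22.4 RPKM in the mutant, 1.01 and 1.22 in the lit and 1.28 and 1.66 in the dark wild type (log2 difference 3.51, SE 0.11, adjusted p = 1.86e-10). CCA1 was at 46.8 and 46.1 RPKM in the mutant, 7.18 and 7.26 in the lit and 18.96 and 18.7 in the dark wild type (log2 difference 2.53, SE 0.07, adjusted p = 1.06e-10). ELF4, of the evening complex, was at 21.1 and 21.1 RPKM in the mutant, 123 and 121 in the lit and 7.53 and 7.67 in the dark wild type (log2 difference -2.48, SE 0.05, adjusted p = 1.04e-11), and TOC1, an evening gene too, differed by -1.22 (SE 0.07). The morning genes PRR9 and CCA1 were thus highest in the mutant and ELF4 in the lit wild type, but GI, an evening gene, was higher in the mutant (2.02, SE 0.07). The genes of sugar starvation and darkness were below the dark wild type in both states. All 8 were called lower in the mutant (50.8% of all members) and in the lit wild type (40.0%). Yet 5 of 8 were higher in the mutant than in the lit wild type (23.4% of all members). ASN1, asparagine synthetase, was at 50.2 and 46.1 RPKM in the mutant, 11.7 and 9.95 in the lit and 377 and 387 in the dark wild type. SEN1 was at 313 and 330.3 RPKM in the mutant, 65.1 and 42.6 in the lit and 644 and 608 in the dark wild type. In these dark-induced genes the mutant lay between the wild-type groups. DIN10, a raffinose synthase-like gene, was lower in the mutant than in the lit wild type (log2 difference -1.71, SE 0.07).

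Markers of single tissues moved in different ways. Root hair genes were lower in the mutant in 9 of 10 cases (52.9% of all members), 4 of which passed the level filter through the lit libraries alone, with a median of -2.16 (-1.92 relative to all members) and a summed level of 44.3 and 42.6 RPKM against 139 and 128 in the lit wild type. PRP3, a wall protein of root hairs, was at 6.23 and 6.87 RPKM in the mutant, 58.6 and 51.7 in the lit and 29.4 and 38.6 in the dark wild type (log2 difference -2.89, SE 0.11, adjusted p = 6.87e-10). COBL9, needed for hair growth, was at 0.441 and 0.349 RPKM in the mutant, 5.85 and 6.001 in the lit and 2.89 and 3.06 in the dark wild type. The mutant was the lowest group in both genes. CSLD3, a cellulose synthase-like gene, was the one that was higher (30.9 and 28.5 RPKM in the mutant and 16.3 and 16.8 in the lit wild type). Of 12 root tissue genes, 5 were higher (23.4% of all members), 2 lower (52.9%) and 5 not called, and 8 were close (43.2%). With median-ratio scaling 8 were higher and 2 lower. SCR, of the endodermis, was at 17.5 and 17.8 RPKM in the mutant, 18.2 and 18.9 in the lit and 18.2 and 20.04 in the dark wild type. CASP2, of the Casparian strip, was at 20.7 and 22.8 RPKM in the mutant, 22.6 and 23.2 in the lit and 74.2 and 78 in the dark wild type. SHR, a regulator of the same ground tissue, was lower, at 6.17 and 5.72 RPKM in the mutant, 12.5 and 12.3 in the lit and 18.1 and 20.05 in the dark wild type. IRT1, the iron transporter of the root epidermis, was lower (1.44 and 2.01 RPKM in the mutant and 9.52 and 10 in the lit wild type). Against the dark wild type, 11 of the 12 root tissue genes were called lower in the mutant (50.8% of all members) and 10 in the lit wild type (40.0% of all members), with medians of -1.67 and -1.74. Of the root hair genes, 9 of 10 were called lower in the mutant than in the dark wild type and 2 in the lit wild type, with medians of -1.71 and 0.50.

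Of 13 genes of lateral root initiation only 5 were members. LBD18, a target of ARF7 and ARF19, was at 0.1702 and 0.212 RPKM in the mutant, 1.38 and 1.05 in the lit and 1.68 and 1.86 in the dark wild type, and it passed the level filter through the lit libraries alone, which sets its direction. LBD16 was at 1.47 and 1.74 RPKM in the mutant, 3.08 and 3.096 in the lit and 7.46 and 7.34 in the dark wild type. Both LBD genes were below all wild-type libraries in the mutant. LBD29, no member, was at 0.0941 and 0.0978 RPKM in the mutant and 0.817 and 0.452 in the lit wild type.

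Cell division genes were lower in the mutant than in the lit wild type in 13 of 15 cases (52.9% of all members), with 2 higher. Their median was -0.62 (-0.37 relative to all members). KN, the syntaxin of the dividing cell plate, was at 11.4 and 11.7 RPKM in the mutant, 30.4 and 31.7 in the lit and 21.2 and 20 in the dark wild type (log2 difference -1.35, SE 0.06, adjusted p = 4.82e-09). CDKB2;1, a mitotic kinase, was at 9.88 and 9.42 RPKM in the mutant, 25.8 and 26.4 in the lit and 21.6 and 20.5 in the dark wild type. For both the mutant was the lowest group. CYCD3;3, a D-type cyclin of shoot organs, was higher, with a log2 difference of 0.36 (SE 0.09). Stomatal lineage genes were higher in 8 of 9 cases (23.4% of all members) with a median of 0.52. SPCH, which starts the lineage, was at 6.93 and 6.12 RPKM in the mutant, 3.58 and 3.03 in the lit and 1.09 and 1.35 in the dark wild type, whereas FAMA, of the last division, was at 4.54 and 4.42 RPKM in the mutant, 12.1 and 12.2 in the lit and 1.74 and 1.77 in the dark wild type. So the entry gene was highest in the mutant and the exit gene in the lit wild type. Of 8 measured shoot apex and leaf genes 3 were higher (23.4% of all members), 3 lower (52.9%) and 2 not called. With median-ratio scaling 4 were higher and 2 lower. FIL, an abaxial leaf factor, was at 52.5 and 49.3 RPKM in the mutant and 18.04 and 18.7 in the lit wild type, and ANT, a growth regulator of young organs, at 3.803 and 3.69 RPKM in the mutant and 9.302 and 10.3 in the lit wild type. Whether the share of a tissue in the seedling differs was not tested.

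Transcripts of the plastid genome were mostly higher in the mutant, with 70 of 88 higher (23.4% of all members), 8 lower and 10 not called. The median was 1.08, but the mutant libraries differed from each other. Their summed plastid-encoded level was 24907 and 34449 RPKM, against 24292 and 25328 in the lit wild type. ATCG00040 was at 272 and 486 RPKM in the mutant and 28.9 and 31.6 in the lit wild type, and ATCG00120 at 250.1 and 487 RPKM in the mutant and 49.04 and 44.4 in the lit wild type. ATCG00480 and ATCG00470 went the other way, at 743 and 819 RPKM in the mutant and 1863 and 2110 in the lit wild type, and at 1124 and 1492 RPKM in the mutant and 2741 and 2888 in the lit wild type. In these 4 genes the mutant libraries did not overlap with the lit ones. Of 122 mitochondrion-encoded models 45 were members, with 25 higher (23.4% of all members), 2 lower and 18 not called. For these the mutant libraries summed to 674 and 950 RPKM against 540.2 and 455 in the lit wild type. Organelle transcripts are mostly not polyadenylated as nuclear ones are, so their level after oligo(dT) selection is a loose measure, and the part of this in the result was not tested. Of 8 common reference genes 2 were higher, 4 lower and 2 not called, and 6 were close (43.2% of all members), and ACT2, an actin gene, was lower in the mutant (416 and 426 RPKM in the mutant and 849 and 862 in the lit wild type).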

How the data were processed

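Polyadenylated RNA, selected with oligo(dT), was sequenced from 8 libraries in 4 groups. The authors deposited 1 table of RPKM values per gene model; reads had been aligned with Bowtie2 2.2.2 to TAIR10, per the submitters' processing notes, and how reads were assigned to models is not given in the sources used here. Library totals came from the steps between the values. With these totals, 5058 of the 24717 models above 0 gave whole reads (within 0.02 reads) at their annotated length; for the other 19659 the shortest length that gave whole reads was taken, so reads of these models are estimates. RPKM being a share of the library, abundant transcripts lower the values of all others.

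Differences of log2(RPKM + 1) were fitted with limma 3.58.1 in R 4.3.3, with a mean-variance trend, over 20044 models with at least 1 RPKM in at least 2 of the 8 libraries, and p-values were adjusted by Benjamini-Hochberg over these. All 4 groups were fitted together because 2 libraries a group give little information on the spread. Gene names and products were those of RefSeq, which held 26719 of the 27416 models.

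Members and lists were chosen with earlier results of these data known. The genes described singly were those mutated, the 12 largest differences each way without overlap of groups at a mean of at least 5 RPKM, up to 4 higher, 4 lower and 3 close genes of each list, the 12 close models farthest from the dark wild type, and 8 genes fixed by name. LTP2, PETE1 and PHYA fall outside this rule and were chosen after their values were seen. Alternatives were other pseudocounts, filters, scalings and fits, a replicate block, voom on recovered reads, and leaving out each library.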

Additional observations from a re-analysis of the deposited data

How the results depend on the processing

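The counts of higher, lower, at least 2-fold higher, at least 2-fold lower and close members stayed within 1.5 times of the reported ones in all 19 alternatives. Leaving out each library in turn gave 4188 to 4568 higher, 9227 to 10286 lower, 1580 to 1632 at least 2-fold higher, 2284 to 2449 at least 2-fold lower and 7422 to 8423 close members. A lone library of a group was then assumed to vary like the other groups. Equal replicate numbers do not pair these libraries: the correlation of replicate deviations was -0.03 between the mutant and the lit wild type and -0.12 to 0.14 between other groups. With the replicate block there were 4565 higher, 10288 lower and 8391 close members. Pseudocounts of 0.1 and 0.5 RPKM gave 7156 and 7726 close members and voom on the recovered reads 7218. With no filter on low values 12432 of 24717 models were close, and with a filter of 5 RPKM 3901 of 15799 were higher and 8284 lower.

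The share of calls that were higher was 30.7% as deposited, 36.9% with upper-quartile scaling and 49.7% with median-ratio scaling. The last reversed the sign of genes near 0 and called them higher in the mutant: ARF2 (0.25), PSAD-1 (0.25), SAUR78 (0.21), GID1A (0.20), SCR (0.18), PSBQ-2 (0.22), EIN3 (0.24), PSBY (0.21) and DET2 (0.24). That scaling also moved other close genes, UGT78D2 from 0.17 to 0.43 and DVR from 0.17 to 0.42, so closeness on the deposited scale can be lost. With 0.1 RPKM as pseudocount the list medians that rest on low genes grew, to 4.44 for seed reserve, -2.57 for glucosinolate synthesis and -2.77 for root hair.

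At 19.3 to 23.1 M reads a library, genes under 1 RPKM rest on few reads, and 2 libraries a group limit all errors.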
